A study of Mus musculus with 35 samples.

Results

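Nucleic acid sensors are the receptors with which cells detect foreign or misplaced RNA and DNA. The endosomal Toll-like receptors Tlr3, Tlr7 and Tlr9 read nucleic acids taken up from outside the cell, whereas Ddx58 (RIG-I), Ifih1 (MDA5) and Dhx58 (LGP2) are the RIG-I-like helicases that bind viral or other double-stranded RNA in the cytosol. Zbp1 binds left-handed Z-form RNA and DNA, Eif2ak2 (PKR) is a double-stranded RNA-activated kinase that stops translation through eIF2 alpha, and Tmem173 (STING) relays the signal of the cytosolic DNA sensor cGAS. In brain, Tlr7 is mostly a microglial transcript, and the helicases, Zbp1 and Eif2ak2 are themselves induced by type I interferon, so their transcripts are both sensors and targets of the response they start.

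The 9 genes Tlr3, Tlr7, Tlr9, Ddx58, Ifih1, Dhx58, Zbp1, Eif2ak2 and Tmem173 were taken by name from the 22099 genes of the striatal RNA-seq table. All 9 were listed under these symbols, all had at least 10 counts in 5 or more mice, and all were among the 17639 genes tested. Zbp1 reached 10 counts in only 13 mice, all 12 on Htt ASO and 1 on saline, so it was tested because of the group in which it was high, and counts of sensors called on Htt ASO against control ASO or saline are given without it. In GENCODE M21 (GRCm38) the 5 that are reported in most detail are protein-coding genes on the minus strand, at chr2:62595798-62646255 (Ifih1), chr2:173206612-173218923 (Zbp1), chr4:40203773-40239828 (Ddx58), chr11:100694884-100704271 (Dhx58) and chr17:78852564-78882573 (Eif2ak2). The 35 female mice, of the C57BL/6J background, were Htt Q111/+ (called Q111 here), which carry an expanded CAG tract knocked into 1 allele of their own huntingtin gene in every cell, or their Htt+/+ littermates (WT). Each received a weekly intraperitoneal injection from 2 to 10 months of age of saline (4 µL per g), of an off-target control antisense oligonucleotide (control ASO, 50 mg per kg) or of a huntingtin-directed one (Htt ASO, 50 mg per kg), which lowers huntingtin from both alleles. An ASO given this way reaches liver and fat but hardly crosses the blood-brain barrier, so the striatum was studied as a tissue that the drug itself mostly does not reach. There were 6 mice in every group except WT control ASO, which had 5, and all were 299 to 304 days old. The right hemistriatum was sampled, and for 1 WT Htt ASO mouse (replicate 6) the left one. The sample titles carry a number after the letter L, whose meaning the sources used here do not give; mice that share it are called an L group. Library totals were 32200158 to 38641924 expected counts (median 35538941), and the 85 pairs of mice within groups differed by more than counting noise, with a chi-square per degree of freedom of 3.57 to 16.5. The targeted transcript, Htt, was 85.3 ± 13.01 CPM (expected counts per 1000000 counts of the library; SD, n = 6) in WT and 71.6 ± 8.34 CPM (n = 6) in Q111 mice on Htt ASO, against 89.6 ± 8.78 (n = 5) and 75.1 ± 7.74 CPM (n = 6) on control ASO (log2 fold change over both genotypes −0.077, SE 0.068, limma adjusted p = 0.967). The 7 striatal neuron markers were abundant in every library, summing to 3381 to 6065 CPM.

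Sequences are shown for the 3 sensors, Ifih1, Ddx58 and Eif2ak2, whose promoter window held the core of an interferon-stimulated response element (ISRE). These 3 were also called higher in the main comparison that follows. A link between motif and call was not tested, since only 5 of the 9 promoters were searched. RefSeq promoter windows (GRCm38.p6, 250 bases before to 50 after the gene's start) were searched for 5 of the 9 genes (Ifih1, Ddx58, Eif2ak2, Tlr3 and Tlr9). The Tlr3 window ends at chr8:45410630, whereas the GENCODE M21 gene, on the minus strand, reaches 45411080. That window does not cover the GENCODE start, so a motif not found in Tlr3 is absent from the RefSeq window only. The ISRE core, searched as GAAANNGAAA on both strands, was found in Ifih1, Ddx58 and Eif2ak2 and not in Tlr3 or Tlr9, and 3.44% of all 32851 windows held it. It started 33 bases into Ifih1, 3 bases into Ddx58 (on the opposite strand) and 19 bases into Eif2ak2, counting the start as base 1. The gamma-activated site, searched as TTCNNNGAA, was found only in Eif2ak2 among the 5, starting 178 bases before the start and not overlapping the ISRE, and 8.30% of all windows held it. The stretches with each match are given below 5′ to 3′ on the strand of the gene, which is the minus strand for all 3, with the motif in capitals. They lie at chr2:62646206-62646235 (Ifih1), chr4:40239804-40239833 (Ddx58), chr17:78882535-78882564 (Eif2ak2, ISRE) and chr17:78882731-78882760 (Eif2ak2, gamma-activated site). A match of letters is a description and does not show that a factor binds there.
Ifih1 ISRE: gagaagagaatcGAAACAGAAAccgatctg
Ddx58 ISRE: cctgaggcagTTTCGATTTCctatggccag
Eif2ak2 ISRE: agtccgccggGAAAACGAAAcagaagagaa
Eif2ak2 gamma-activated site: ctgcagagctTTCCCAGAAtggaagccagg

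Levels between genes can be set side by side only per transcript length, here as mean CPM per kb of the longest protein-coding transcript (GENCODE M21) over all 35 mice. Tlr3 was the most abundant sensor at 3.63 ± 0.350 CPM per kb (SD), and its lowest mouse (3.10) lay above the highest mouse of the gene that follows, Eif2ak2 (2.05 ± 0.277, highest 2.85). Tlr7 (1.76 ± 0.203), Ddx58 (1.73 ± 0.341) and Tmem173 (1.58 ± 0.222) came close together and their ranges overlapped almost wholly. Ifih1 (0.787 ± 0.190), Dhx58 (0.602 ± 0.150) and Tlr9 (0.517 ± 0.0835) followed, each overlapping its neighbour. Zbp1 was the scarcest at 0.167 ± 0.148 CPM per kb, with 1 to 39 counts per mouse, so it carried the widest counting error of the 9. For Dhx58 and Eif2ak2 the deposited count was a whole number in 5 and 0 of 35 mice, against 28 to 35 mice for the other 7 genes. These are counts per gene, so part of their reads was shared out with other genes by the counting program and their levels are less certain.

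On Htt ASO, Zbp1, Ifih1, Ddx58 and Eif2ak2 were higher than on control ASO when both genotypes were averaged, by 4.45-fold, 1.45-fold, 1.33-fold and 1.19-fold. Dhx58 was 1.30-fold higher without passing the threshold of an adjusted p of 0.05, and the 3 Toll-like receptors and Tmem173 stayed between 0.916-fold and 1.11-fold. Leaving Zbp1 aside, 3 of the other 8 sensors were called, beside 165 genes of all 17639 tested (0.935%), or 146 (0.828%) when only genes higher on Htt ASO are counted. The median log2 fold change was 0.20 over these 8 and −0.0038 over all genes tested. Against saline Zbp1, Ifih1, Ddx58, Eif2ak2 and Dhx58 were called, which is 4 of the 8 without Zbp1 (median 0.15), where 1.47% of all genes were called in either direction and 1.2% as higher. The comparisons with control ASO and with saline share the same Htt ASO mice. The sensors were chosen with earlier results of these data known, so these counts and medians are a description and no test of the set. In RNA from whole striatum, a change in the number of cells of a type and a change in RNA per cell cannot be told apart, and this holds for each value that follows.

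**Figure D1:**
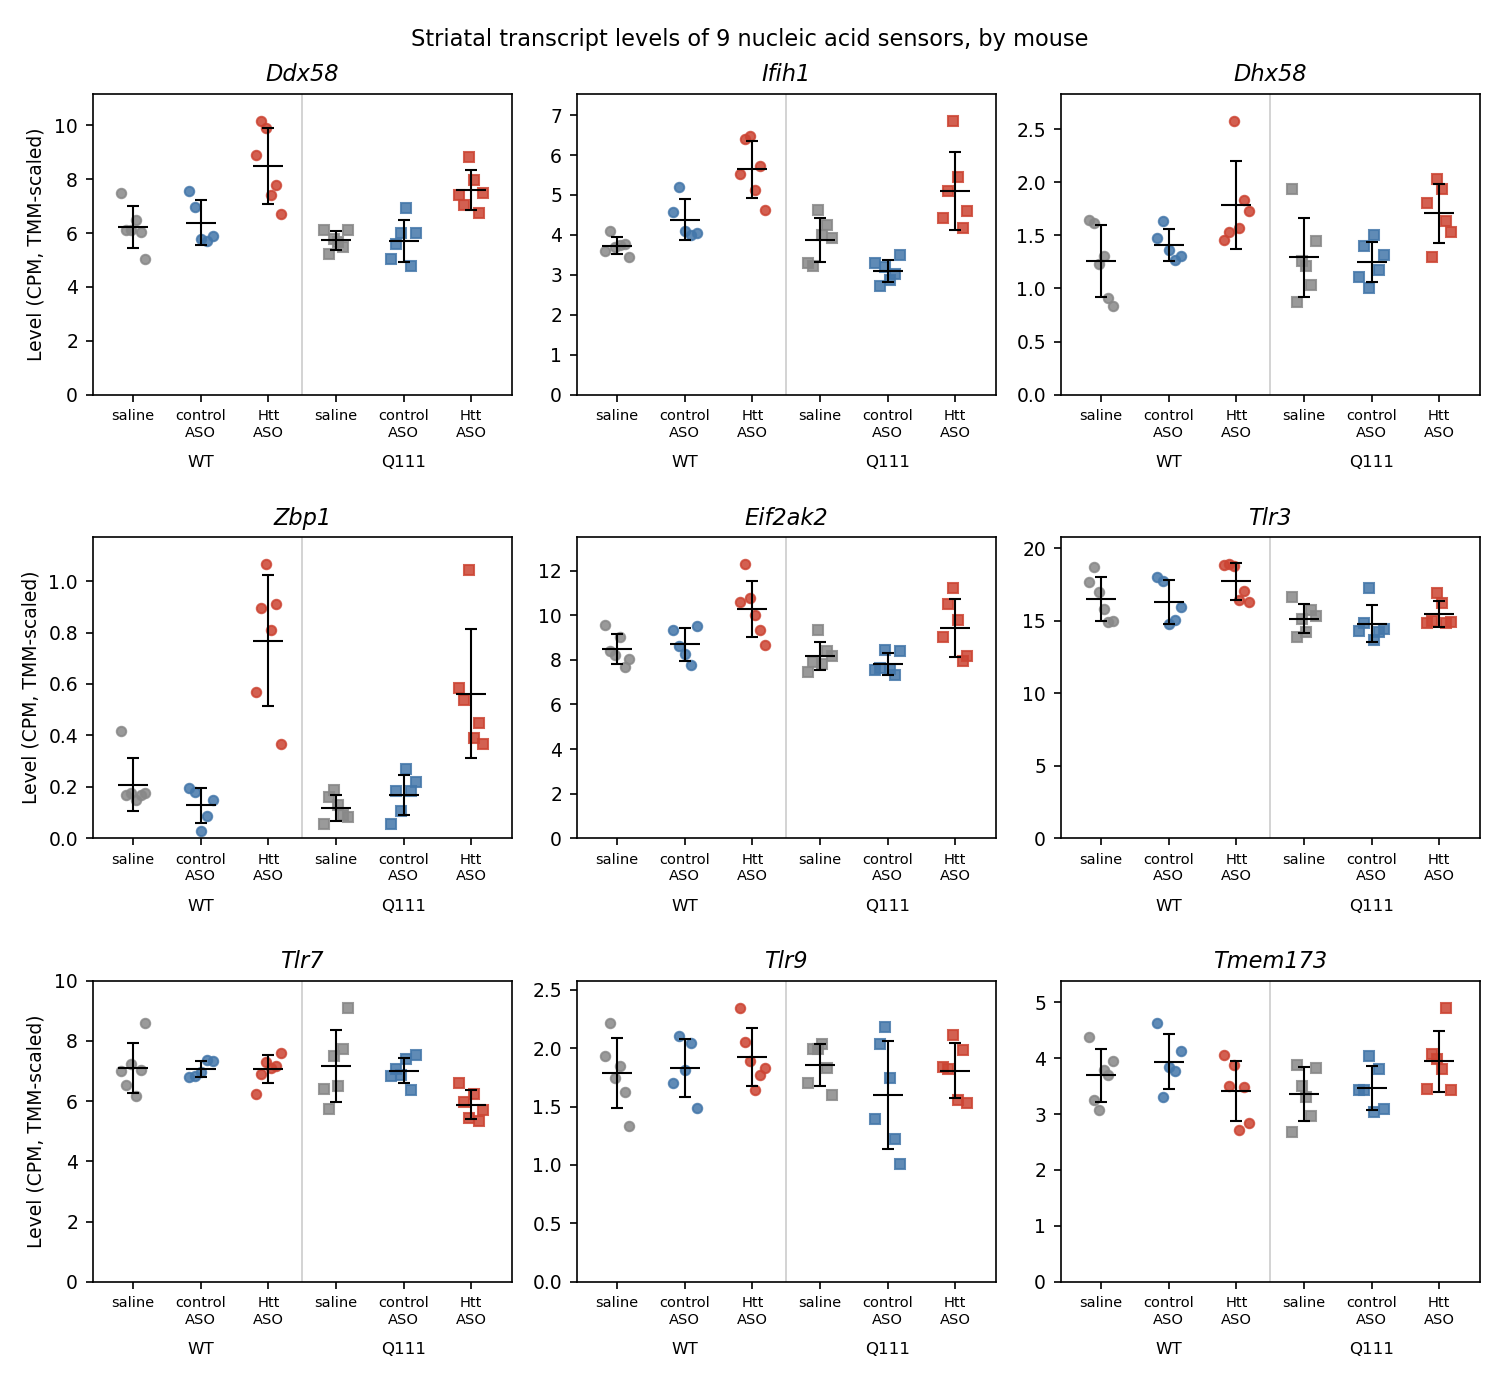
Levels of the 9 sensors in each of the 35 mice, in TMM-scaled CPM (vertical axis, starting at 0) for the 3 treatments in WT (circles) and Q111 mice (squares). Black bars are the mean and SD of each group. For Zbp1 the Htt ASO mice lie at 0.365 CPM or more and every control ASO mouse at 0.270 CPM or less. Nothing is read from this separation, since Zbp1 was tested because of its Htt ASO mice. Tlr3, Tlr9 and Tmem173 overlap between treatments.

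Zbp1 held the largest difference of the 9. In WT mice it was 0.365, 0.851 and 1.07 CPM (lowest, median and highest) on Htt ASO and 0.195, 0.180, 0.0288, 0.0851 and 0.149 CPM in the 5 mice on control ASO. In Q111 mice it was 0.367, 0.492 and 1.04 CPM on Htt ASO and 0.0558, 0.182 and 0.270 CPM on control ASO. All 12 Htt ASO mice lay above all 11 control ASO mice, which held for none of the other 8 sensors. Over all genes tested the share was 0.136%, and nothing is read from Zbp1 against it, since Zbp1 was tested because of those 12 mice. The saline mice ranged from 0.147 to 0.417 CPM in WT and from 0.0557 to 0.189 CPM in Q111 mice, and 9 of the 12 Htt ASO mice exceeded the highest of them. The log2 fold change against control ASO was 2.15 (SE 0.27, limma adjusted p = 2.36e-06), and against saline 1.98 (SE 0.25, limma adjusted p = 2.41e-06). In counts, the Htt ASO mice had 12 to 39 and the control ASO mice 1 to 9. The size of the difference was wide, with a 95% interval of 3.04-fold to 6.51-fold against control ASO. These p-values and this interval carry the same limit, since Zbp1 was tested because of its Htt ASO mice.

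Ifih1, which senses long double-stranded RNA, was 4.64, 5.62 and 6.48 CPM (lowest, median and highest) in WT mice on Htt ASO and 4.58, 5.20, 4.09, 4.00 and 4.04 CPM in the 5 on control ASO. In Q111 mice it was 4.17, 4.84 and 6.86 CPM on Htt ASO and 2.73, 3.11 and 3.50 CPM on control ASO. The Q111 groups did not overlap, as was also true of Zbp1 and of 0.765% of all genes tested, whereas in WT mice 1 control ASO mouse (5.20 CPM) reached into the Htt ASO range. Against WT saline mice (3.45 to 4.10 CPM) the 6 WT Htt ASO mice were all higher, which held for no other sensor and for 0.748% of genes. The log2 fold change over both genotypes was 0.53 (SE 0.077, limma adjusted p = 3.37e-05) against control ASO and 0.49 (SE 0.074, limma adjusted p = 4.89e-05) against saline.

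Ddx58, the sensor of 5′-triphosphate RNA, was 6.72, 8.35 and 10.2 CPM in WT mice on Htt ASO and 7.56, 6.97, 5.795, 5.70 and 5.90 CPM on control ASO. In Q111 mice it was 6.75, 7.45 and 8.84 CPM on Htt ASO, against 4.77, 5.79 and 6.93 CPM with control ASO and 5.22, 5.71 and 6.12 CPM with saline. The Htt ASO and control ASO groups overlapped in both genotypes, while in Q111 mice all 6 Htt ASO values lay above all 6 saline values, as for Zbp1 and for 0.635% of all genes. Over both genotypes its log2 fold change was 0.41 (SE 0.073, limma adjusted p = 0.000935) against control ASO and 0.42 (SE 0.071, limma adjusted p = 0.000229) against saline. Ddx58 had the same size of difference in WT (0.40, SE 0.10) and Q111 mice (0.42, SE 0.10), with an interaction of 0.020 (95% interval −0.28 to 0.32).

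Dhx58, the helicase that tunes the other two and lacks their signalling domains, was 1.45, 1.65 and 2.58 CPM in WT mice on Htt ASO and 1.48, 1.63, 1.37, 1.27 and 1.31 CPM on control ASO. In Q111 mice it was 1.29, 1.72 and 2.03 CPM on Htt ASO and 1.003, 1.24 and 1.501 CPM on control ASO. The groups overlapped in both genotypes, although 7 of the 12 Htt ASO mice exceeded every control ASO mouse. Its log2 fold change was 0.38 (SE 0.12, limma adjusted p = 0.214) against control ASO and 0.47 (SE 0.12, limma adjusted p = 0.0311) against saline. The call against saline was lost in 12 of the 46 alternative fits, 9 of them leaving out a single mouse, with adjusted p up to 0.0980.

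Eif2ak2, the only kinase among the 9, was 8.66, 10.3 and 12.3 CPM in WT mice on Htt ASO and 9.33, 8.61, 8.25, 7.78 and 9.53 CPM on control ASO. In Q111 mice it was 7.97, 9.40 and 11.2 CPM on Htt ASO and 7.32, 7.61 and 8.45 CPM on control ASO. Both pairs of groups overlapped, with 7 of 12 Htt ASO mice above every control ASO mouse. Its log2 fold change was 0.25 (SE 0.059, limma adjusted p = 0.0211) against control ASO and 0.24 (SE 0.057, limma adjusted p = 0.0174) against saline. The call against control ASO was lost when only the groups compared were fitted (adjusted p = 0.0665), without WT control ASO replicate 3 (0.0538), without replicate 4 (0.0636) and without the 6 mice of L group 7 (0.156), and the call against saline without L group 7 (0.257) and with the L group as a covariate (0.118).

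Of the 3 endosomal receptors and Tmem173, 0 were called by limma on Htt ASO against control ASO over both genotypes, with 1, Tlr7, at an unadjusted p under 0.05. Tlr3, which senses double-stranded RNA in endosomes, was 16.3, 17.9 and 18.9 CPM in WT mice on Htt ASO and 18.03, 17.8, 14.8, 15.1 and 15.9 CPM on control ASO. In Q111 mice it was 14.8, 14.96 and 16.9 CPM on Htt ASO and 13.7, 14.4 and 17.3 CPM on control ASO, so that the treatments overlapped in both genotypes (log2 fold change 0.092, SE 0.046, 95% interval −0.0019 to 0.19, limma adjusted p = 0.797). Tlr9, the receptor for unmethylated CpG DNA, was 1.53 to 2.35 CPM over the 12 Htt ASO mice and 1.01 to 2.18 CPM over the 11 control ASO mice (log2 fold change 0.15, SE 0.10, 95% interval −0.061 to 0.36, limma adjusted p = 0.941). Tmem173, the adaptor of DNA sensing, was 2.72 to 4.90 CPM and 3.03 to 4.63 CPM in the same mice (log2 fold change −0.021, SE 0.080, 95% interval −0.18 to 0.14, limma adjusted p = 0.990). The upper limits of these intervals lie below the fitted differences of Ifih1 and Ddx58, at 1.14-fold for Tlr3, 1.28-fold for Tlr9 and 1.103-fold for Tmem173.

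Tlr7, a receptor for single-stranded RNA, went the other way in Q111 mice. It was 5.35, 5.83 and 6.59 CPM in Q111 mice on Htt ASO, against 6.36, 6.98 and 7.52 CPM on control ASO and 5.75, 7.01 and 9.10 CPM on saline. In WT mice it was 6.24, 7.14 and 7.61 CPM on Htt ASO and 6.81, 6.85, 6.98, 7.35 and 7.34 CPM on control ASO. Among Q111 mice 5 of the 6 on Htt ASO lay below every control ASO mouse, and in WT mice 1 of 6 did. The Q111 differences of −0.25 (SE 0.084, limma adjusted p = 0.347) against control ASO and −0.27 (SE 0.083, limma adjusted p = 0.228) against saline did not pass the threshold over all genes. Without the 6 mice of L group 7, of which 1 received Htt ASO, 2 control ASO and 3 saline, the difference from saline was called, at −0.50 in Q111 mice (limma adjusted p = 0.00319) and −0.25 over both genotypes (limma adjusted p = 0.0116). The interaction with genotype was −0.25 against control ASO (unadjusted p = 0.0425 in limma's test) and had an adjusted p of 0.999.

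Taken within each genotype, the comparisons rest on 5 or 6 mice a side and fewer sensors were called, with the counts again given without Zbp1. In WT mice 0 of the other 8 sensors were called against control ASO by limma, with 3 at an unadjusted p under 0.05, and Zbp1 was (log2 fold change 2.59, SE 0.40, limma adjusted p = 0.000285), where 0.295% of all genes were called. In Q111 mice Zbp1 (1.72, SE 0.36, limma adjusted p = 0.0150) and Ifih1 (0.70, SE 0.11, limma adjusted p = 0.000328) were called, 1 of the 8 without Zbp1, where 0.357% of all genes were. The Zbp1 call in Q111 mice was lost without control ASO replicate 1 (0.0787), control ASO replicate 3 (0.0507), Htt ASO replicate 3 (0.0532) or L group 7 (0.126). Against saline, Ddx58 (0.44, limma adjusted p = 0.0183), Ifih1 (0.59, limma adjusted p = 0.00123) and Zbp1 (1.84, limma adjusted p = 0.00129) were called in WT mice, 2 of the 8 without Zbp1, beside 0.726% of all genes. The WT call of Ddx58 was lost when only the groups compared were fitted (0.151) and without Htt ASO replicate 2 (0.0779), Htt ASO replicate 3 (0.0672) or saline replicate 6 (0.0811). In Q111 mice 0 of the other 8 were called against saline by limma (6 at an unadjusted p under 0.05), beside 0.556% of all genes. Zbp1 was called there (2.13, SE 0.38, limma adjusted p = 0.00191), and Ddx58 (0.40, limma adjusted p = 0.0566) and Ifih1 (0.39, limma adjusted p = 0.0855) were not; without L group 7 Zbp1 was not called either (0.101). Htt ASO mice lay wholly above control ASO mice in WT for 0.448% of genes, among the sensors for Zbp1, and above saline mice of both genotypes for 0.244% of genes and none of the 9.

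No sensor differed between genotypes in its response to Htt ASO at the threshold. The interaction test called 0 sensors and 0 genes (0%) against control ASO and likewise 0 (0%) against saline by limma; at an unadjusted p under 0.05 there were 713 genes and 3 sensors in the first and 973 genes and 2 sensors in the second. The sensors with such an unadjusted p were Tlr7 and Tmem173 in both interactions and Ifih1 against control ASO only. Neither edgeR nor DESeq2 called a sensor in either interaction. For Ifih1 the difference was larger in Q111 mice by 0.34 (95% interval 0.026 to 0.65) against control ASO and smaller by −0.20 (95% interval −0.50 to 0.11) against saline. For Tmem173 the fold changes pointed in opposite directions, −0.22 (SE 0.12) in WT and 0.18 (SE 0.11) in Q111 mice against control ASO, and each interval included 0. For Zbp1 the interaction was −0.88 against control ASO and 0.29 against saline, with 95% intervals of −1.98 to 0.22 and −0.74 to 1.32.

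**Figure D2:**
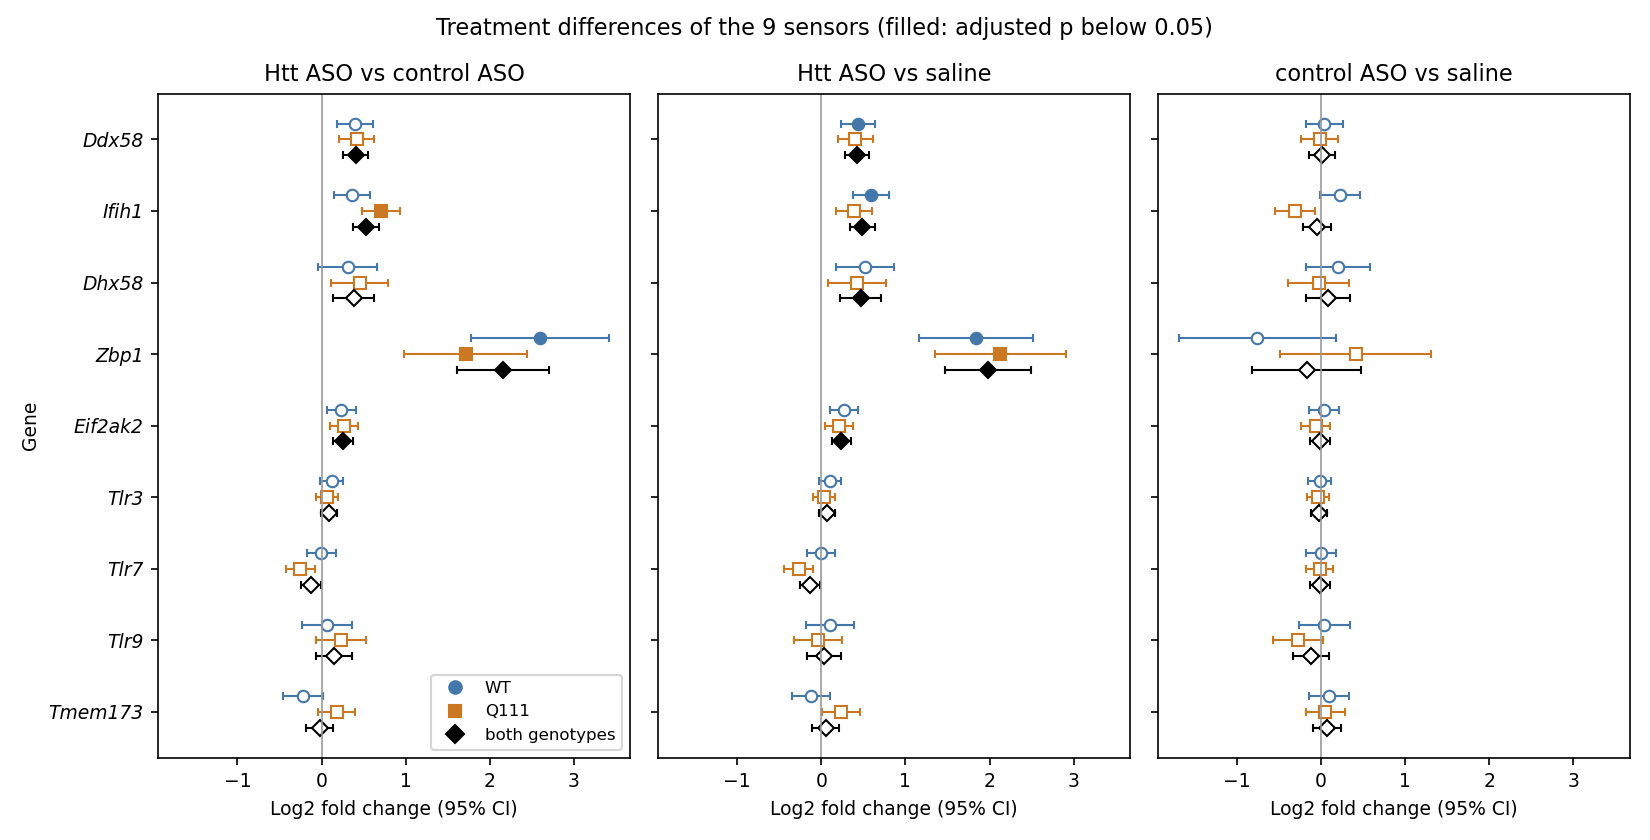
Log2 fold changes of the 9 sensors (horizontal axis) with 95% confidence intervals for Htt ASO against control ASO, Htt ASO against saline and control ASO against saline, in WT mice (circles), Q111 mice (squares) and averaged over both (diamonds). Filled symbols have an adjusted p below 0.05: Ddx58, Ifih1, Zbp1 and Eif2ak2 for both genotypes in the first panel, these and Dhx58 in the second, and none in the third, where the averages lie between −0.17 and 0.088.

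No sensor was called different between control ASO and saline. Averaged over genotypes, limma called 0 of 9 sensors and 0 of 17639 genes (0%), with 0 sensors and 1357 genes at an unadjusted p under 0.05. Within WT mice it again called 0 sensors and 0 genes (0%), with 0 sensors and 2080 genes at an unadjusted p under 0.05, and within Q111 mice 0 and 0 (0%), with 1 sensor, Ifih1, and 512 genes. DESeq2 and edgeR called 0 sensors in these comparisons too, and DESeq2 called 4 genes in WT and 1 in Q111 mice. The sensors' differences ran from −0.17 (Zbp1, SE 0.32) to 0.088 (Dhx58, SE 0.13) over both genotypes. Ifih1 was 0.22 higher on control ASO than on saline in WT mice (SE 0.12, limma adjusted p = 0.440) and 0.31 lower in Q111 mice, a log2 fold change of −0.31 (SE 0.12, unadjusted p = 0.0118 and adjusted p = 1 in limma's test).

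Sensors called between genotypes are given beside the share of all genes called. Over all treatments 2 of 9 sensors were called, Tlr3 (log2 fold change −0.15, SE 0.038, limma adjusted p = 0.00143) and Ifih1 (−0.20, SE 0.063, limma adjusted p = 0.0121), both lower in Q111 mice, where 39.8% of all genes were called. On saline 0 sensors were called beside 17.4% of genes, with 0 sensors at an unadjusted p under 0.05. On control ASO Ifih1 alone was called (−0.49, SE 0.12, limma adjusted p = 0.00362), beside 18.5% of genes. On Htt ASO Tlr3 (−0.19, SE 0.063, limma adjusted p = 0.0268) and Tlr7 (−0.27, SE 0.084, limma adjusted p = 0.0200) were called, beside 21.2% of genes. Each of these shares of sensors is near or below that of all genes, and nothing about the sensors is read from the counts. Tlr3 was 16.9 ± 1.49 CPM (SD, n = 17) in WT and 15.1 ± 1.05 CPM (n = 18) in Q111 mice, and its ranges of 14.8 to 18.9 and 13.7 to 17.3 CPM overlapped. Ifih1 on saline was 3.73 ± 0.218 CPM (SD, n = 6) in WT and 3.88 ± 0.548 CPM (n = 6) in Q111 mice, a log2 fold change of 0.045 (95% interval −0.18 to 0.27). On control ASO it was 4.38 ± 0.511 CPM (n = 5) and 3.10 ± 0.280 CPM (n = 6). Its call over all treatments was lost with the L group as a covariate (−0.11, adjusted p = 0.260) and without L group 7 (−0.13, adjusted p = 0.186). The calls on Htt ASO were lost for Tlr3 in 8 of the 46 alternative fits and for Tlr7 in 4. For Tlr3 these were library totals without TMM scaling (adjusted p = 0.0956), the L group as a covariate (0.0698), leaving out L group 7 (0.0609), and leaving out WT Htt ASO replicate 2 (0.0690) or 3 (0.0593) or Q111 Htt ASO replicate 1 (0.0577), 2 (0.0503) or 5 (0.0580). For Tlr7 they were library totals (0.0536), the L group as a covariate (0.0834), and leaving out Q111 Htt ASO replicate 3 (0.0502) or 5 (0.0538). Ddx58, lower in Q111 mice over all treatments by a log2 fold change of −0.14 without a call (limma adjusted p = 0.0608), was called in 12 of the 46, edgeR and DESeq2 among them, and Eif2ak2 in 7. Both counts hold the fit without the left hemistriatum mouse and the fit without WT Htt ASO replicate 6, which are the same fit. Over all treatments, 7 of 11 microglia markers were called lower in Q111 mice, with a median log2 fold change of −0.091. So were 5 of 6 endothelial markers (median −0.18), beside the 39.8% of all genes called in either direction. When control ASO mice alone were compared, 2 microglia and 4 endothelial markers were called lower. No marker of either kind was called among saline mice or among Htt ASO mice. The medians there were −0.086 and −0.072 for microglia markers, and −0.15 and −0.14 for endothelial markers. The part of these cell types in the genotype differences of Tlr3, Tlr7 and Ifih1 was not tested.

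The mice fell into 6 L groups, of which L group 7 held 6 Q111 mice and no WT mouse. Within every L group the Htt ASO mice had a higher mean than the control ASO mice for Ddx58 (differences in mean log2 CPM of 0.33 to 0.59), Ifih1 (0.38 to 0.86), Dhx58 (0.20 to 0.65), Zbp1 (1.13 to 2.71), Eif2ak2 (0.11 to 0.42) and, barely, Tlr3 (0.0082 to 0.16). Against saline, the first 5 of these were higher in all 5 L groups that held both treatments and Tlr3 in 3 of 5. Tlr7 was lower on Htt ASO than on control ASO in all 6 L groups (−0.32 to −0.024). Tlr9 (−0.26 to 0.46) and Tmem173 (−0.21 to 0.30) were higher in 3 of 6 L groups. An L group held only 1 to 3 mice of each ASO, of both genotypes in part, so these are values without a test.

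**Figure D3:**
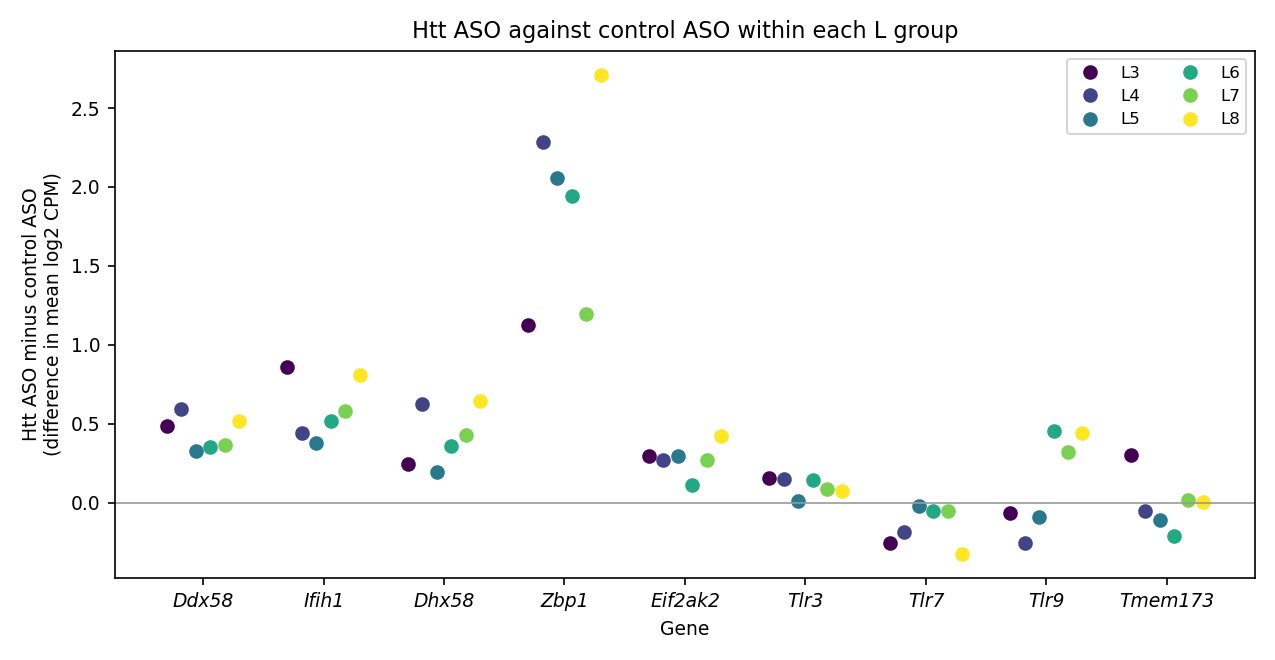
Difference in mean log2 CPM between Htt ASO and control ASO mice (vertical axis) within each of the 6 L groups, 1 point per L group, for the 9 sensors. The points of Ddx58, Ifih1, Dhx58, Zbp1, Eif2ak2 and Tlr3 lie above 0 in 6 of 6 L groups and those of Tlr7 below 0 in 6 of 6, while Tlr9 and Tmem173 fall on both sides.

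Among Ddx58, Ifih1, Dhx58, Zbp1 and Eif2ak2, some pairs varied together between mice of the same group more than others. Pearson's r of the log2 CPM deviations from the group means, over 35 mice and given as a description, was 0.67 for Ifih1 with Eif2ak2, 0.61 for Ddx58 with Eif2ak2, 0.54 for Ddx58 with Dhx58 and for Zbp1 with Eif2ak2, 0.53 for Ddx58 with Zbp1 and 0.51 for Ddx58 with Ifih1. The remaining pairs of these 5 genes were lower, at 0.40 for Ifih1 with Zbp1, 0.25 for Dhx58 with Zbp1, 0.21 for Ifih1 with Dhx58 and 0.11 for Dhx58 with Eif2ak2. Tlr3, although not called on Htt ASO, went with Ddx58 (0.63), Eif2ak2 (0.52) and Ifih1 (0.50) across mice. Tlr7 had no r above 0.048 with any other sensor and was −0.39 with Tlr9. Tmem173 lay between −0.21 (Dhx58) and 0.30 (Eif2ak2). All values of a mouse come from 1 library, so they share its depth and scaling.

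**Figure D4:**
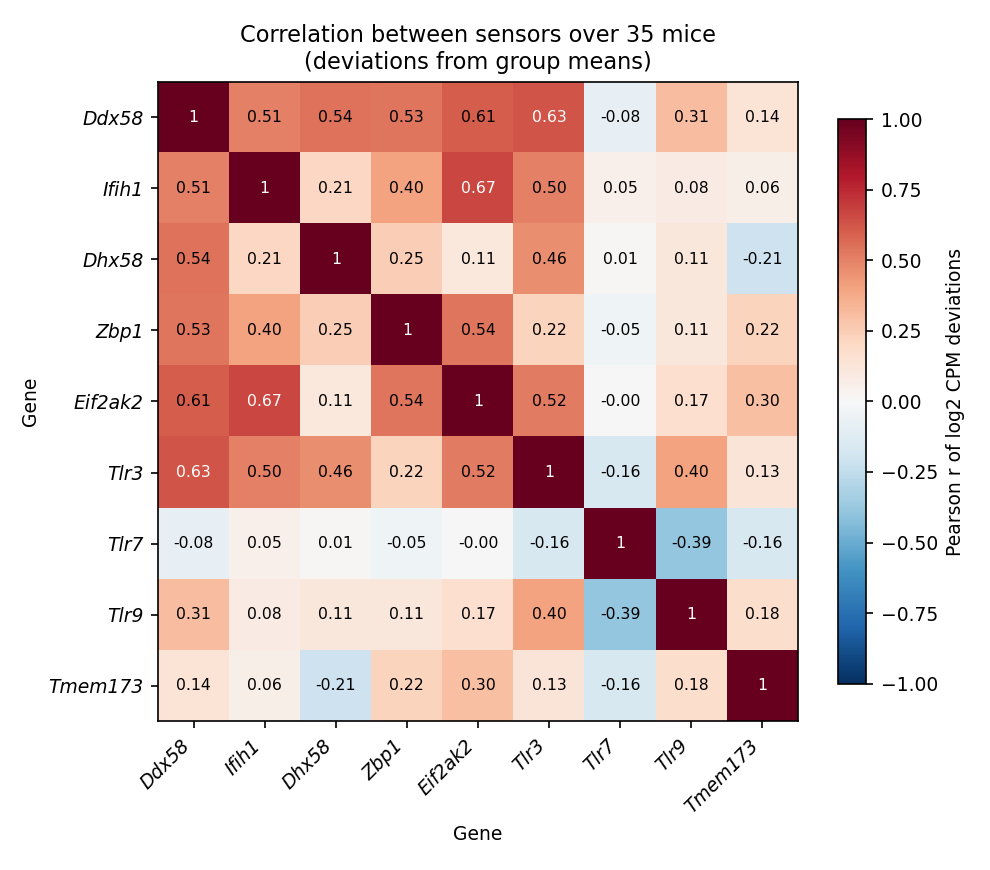
Pearson's r between the 9 sensors over 35 mice, from log2 CPM deviations from the 6 group means (colour and number in each cell, from −1 to 1). The red block at the upper left holds Ddx58, Ifih1, Dhx58, Zbp1 and Eif2ak2, with values from 0.11 to 0.67, Tlr3 joins it at 0.22 to 0.63, and Tlr7 is near or below 0 with every other sensor.

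Ranks within the Htt ASO mice are given for single animals. Among the 12 Htt ASO mice, WT replicate 3 ranked 1 for Dhx58 and Zbp1, 2 for Ddx58 and Ifih1 and 3 for Eif2ak2. Q111 replicate 3 ranked 1 for Ifih1, 2 for Dhx58, Zbp1 and Eif2ak2 and 4 for Ddx58, while it ranked 11 for Tlr7. Other mice held mixed ranks, such as WT replicate 2, which ranked 1 for Ddx58 and Eif2ak2 but 9 for Dhx58, and Q111 replicate 4, which ranked 3 for Dhx58 and 10 for Zbp1. The lowest mean rank over these 5 genes was that of Q111 replicate 5 (10.2), which ranked 12 for Ifih1 and Eif2ak2 and 7 for Dhx58. WT replicate 6, whose left hemistriatum was used, and Q111 replicate 6 both had a mean rank of 9.8, and the former ranked 12 for Ddx58 and Zbp1, 6 for Dhx58 and 1 for Tlr7. With all mice, Ddx58 was not called in WT mice against control ASO (0.40, limma adjusted p = 0.127). Without WT replicate 6, the lowest of the 12 Htt ASO mice for Ddx58, it was called (0.46, limma adjusted p = 0.0258).

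For each sensor genes among the 3 most like it in these deviations, out of 15082 with a mean of at least 1 CPM, are given with their r over the 35 mice. Ddx58 went with Usp18 (0.84), Rnf213 (0.79) and Oas1a (0.79), and Eif2ak2 with Ifit1 (0.75) and Trim30 (0.72), and of these Usp18, Oas1a and Ifit1 are classical interferon-stimulated genes. Ifih1 went with Zc3hav1, an antiviral zinc-finger protein (0.65), Itgam, the microglial and myeloid integrin CD11b (0.65), and Rsad2, the antiviral enzyme viperin (0.63). Dhx58 went with 2010111I01Rik (0.66), B2m, the light chain of MHC class I (0.62), and Oas1a (0.62). Tlr3 went with Parp9 (0.77), Qk (0.74) and Gje1 (0.73). Zbp1, at its low counts, went with Coq7 (0.63), H2-T22 (0.63) and Polr3d (0.60). Tlr7 went with Tsc22d3 (0.62), Cdkn1a (0.61) and Arrdc2 (0.60), of which Tsc22d3 is a well-known glucocorticoid-induced gene. Tlr9 went with Fgfrl1 (0.63), BC057611 (0.62) and Ugt1a7c (0.60), and Tmem173 with Zfp690 (0.65), Gpc5 (0.65) and Specc1 (0.64).

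The genes that carry or restrain the sensors' signal were counted by list, beside the 0.935% of all genes called in the same comparison. These lists too were chosen with earlier results of these data known, so their counts are a description. In the list of adaptors and kinases (among them Mavs, Myd88, Ticam1, Tbk1 and Irf3), 1 of 16 tested was called on Htt ASO against control ASO, Irf7, the transcription factor that amplifies interferon production, which was higher (log2 fold change 1.73, SE 0.15, limma adjusted p = 1.59e-09). The other 15 lay between −0.065 and 0.14, and the list's median was 0.0098. Of 14 cofactors and brakes tested, 2 were higher, Trim25, the ubiquitin ligase that activates RIG-I (0.31, SE 0.060, limma adjusted p = 0.00199), and Usp18, which removes ISG15 and restrains interferon signalling (0.99, SE 0.16, limma adjusted p = 0.000252), with the rest at −0.18 to 0.15 and a median of 0.010. Of 13 other nucleic acid receptors and nucleases tested, 1 was higher, Ifi204, a member of the DNA-binding p200 family (0.77, SE 0.19, limma adjusted p = 0.0274), and the rest lay between −0.089 and 0.098. Of the 8 genes tested in the list of the other eIF2 alpha kinases and their pathway, which holds the targets downstream of Eif2ak2, 0 were called by limma (0 at an unadjusted p under 0.05) and all lay between −0.032 and 0.039. Against saline, where 1.47% of all genes were called, the called members of these 4 lists were again Irf7 (1.75), Trim25 (0.35), Usp18 (1.01) and Ifi204 (0.67).

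**Figure D5:**
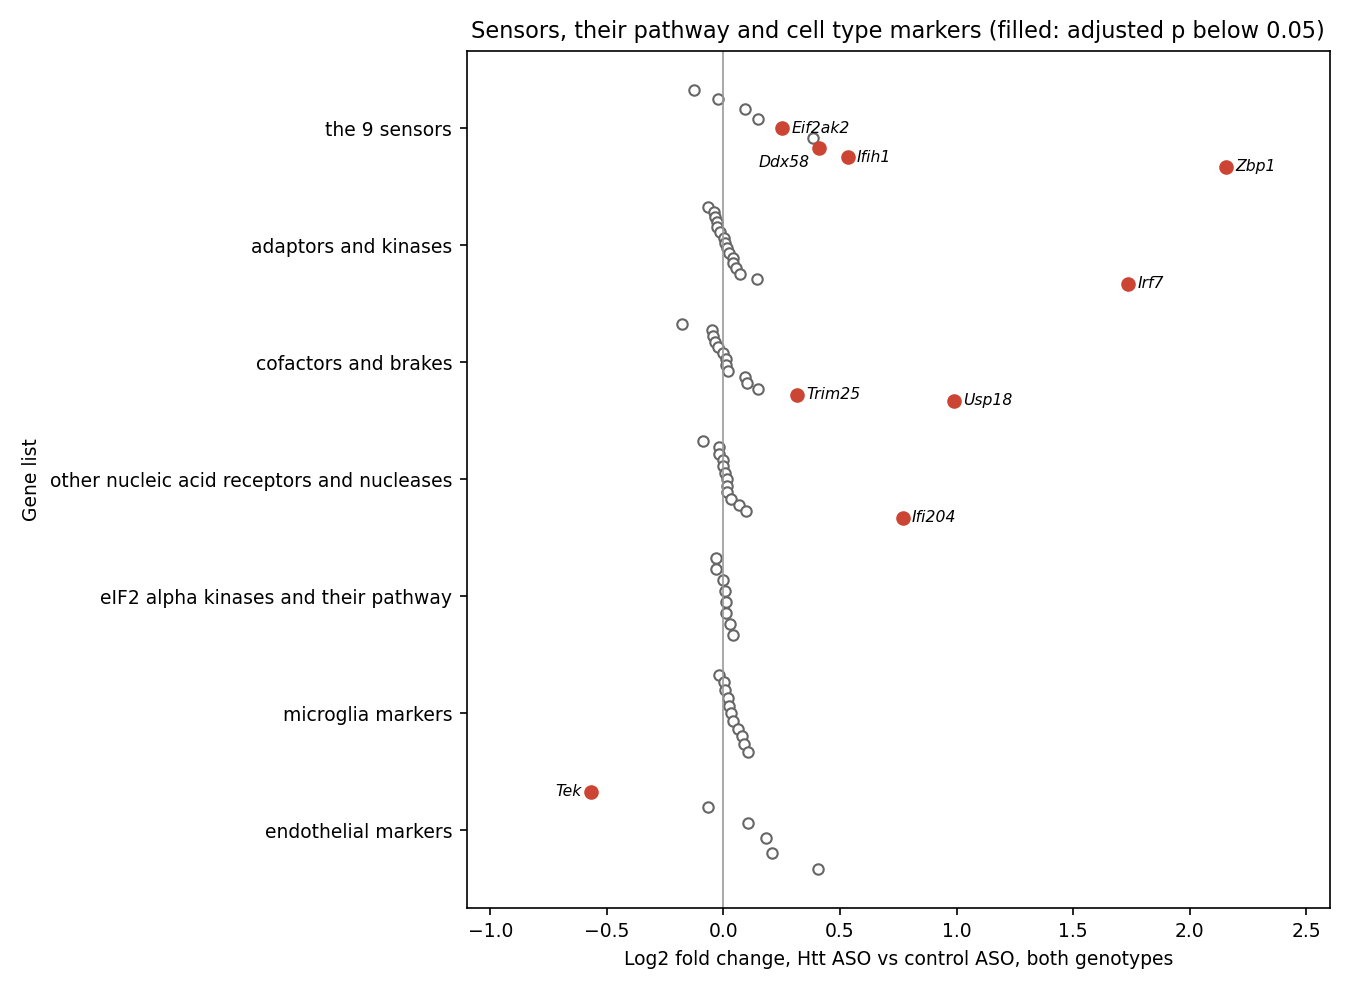
Log2 fold changes of Htt ASO against control ASO over both genotypes (horizontal axis), 1 point per gene, for the 9 sensors, 4 lists of their pathway and 2 lists of cell type markers, in order of value within each list. Filled and named points have an adjusted p below 0.05, and apart from Irf7 (1.73), Usp18 (0.99), Ifi204 (0.77), Trim25 (0.31) and the endothelial gene Tek (−0.57) the genes of these lists lie between −0.18 and 0.41.

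Markers of the cell types that hold sensors were read beside these results. Of 11 microglia markers tested, 0 were called by limma on Htt ASO against control ASO (0 at an unadjusted p under 0.05, median log2 fold change 0.033, from −0.018 to 0.11), and their summed level was 594 to 694 CPM in WT mice on Htt ASO against 596 to 692 CPM on control ASO, and 567 to 644 against 540 to 622 CPM in Q111 mice. Of 6 endothelial markers 1 was called, beside 0.935% of all genes; it was Tek, which was lower (−0.57, limma adjusted p = 1.65e-05), with the others at −0.065 to 0.41. Of these, Cldn5 (0.41, limma adjusted p = 0.0638), Cdh5 (0.21, limma adjusted p = 0.0540) and Pecam1 (0.18, limma adjusted p = 0.156) had an unadjusted p under 0.05. Against saline 3 of the 6 were called, beside 1.47% of all genes: Tek was again lower (−0.58), and Cdh5 (0.35) and Pecam1 (0.20) were higher. The summed endothelial level was 159 to 192 CPM on Htt ASO and 149 to 261 CPM on control ASO in WT mice, and 148 to 168 and 134 to 162 CPM in Q111 mice. Of 4 blood cell markers tested 0 were called by limma, at 0.052 to 0.40 (1 at an unadjusted p under 0.05, Siglech, which microglia also express), and the sum of the 8 listed ranged from 72.1 to 173 CPM on Htt ASO and 65.3 to 268 CPM on control ASO in WT mice, and from 71.8 to 114 and 34.1 to 99.0 CPM in Q111 mice. The T cell marker Cd3e was at 0 counts in 18 mice, and the neutrophil markers S100a8 in 8 and S100a9 in 5. Of the 5 astrocyte, 5 oligodendrocyte and 7 striatal neuron markers 0 were called by limma, and 0 had an unadjusted p under 0.05. The part of endothelial and blood cells in the differences of the sensors was not tested.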

How the data were processed

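Striatal mRNA of 35 mice was sequenced as paired-end stranded TruSeq libraries. The authors aligned reads to mouse transcripts of the MGSCv37 (mm9) build with Bowtie 0.12.9 and deposited RSEM 1.1.18 expected counts per gene, 1 column per mouse. Genes of near-identical sequence share reads in such estimated counts. From these, all 22099 genes went into limma 3.58.1 (voom, TMM scaling by edgeR 4.0.16, R 4.3.3) with 1 mean for each of 6 groups; 17639 passed filterByExpr, and limma's moderated p-values were adjusted by Benjamini-Hochberg over all of them at 0.05, with 29 residual and 4.3 prior degrees of freedom. Averages over genotypes weight groups equally. CPM use TMM-scaled totals (factors 0.971 to 1.03) and log2 CPM a prior count of 2. Intervals are 95%.

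Replicates are separate mice. The oligonucleotide label of the treated group is not spelled out in the sample titles and was read as Htt ASO by elimination. The methods do not say what the number after the letter L stands for. The members and gene lists were chosen with earlier results of these data known, and the interaction against saline was added after the data were seen. Named genes are the 9 sensors, the genes of the pathway lists called on Htt ASO against control ASO over both genotypes, the 3 genes most correlated with each sensor, and Htt, listed as Hdh; Mavs was listed as D430028G21Rik. Every alternative fit (edgeR, DESeq2 1.42.0, scaling, filters, L group, samples left out) was run over all genes, and the fits were tested on simulated data. Ddx60, Dnajc3, Fcrls and Hba-a1 of the gene lists, and the promoters of Tlr7, Dhx58, Zbp1 and Tmem173, were not used here. Values of some items are not reported here.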

Additional observations from a re-analysis of the deposited data

Results flagged for a closer look

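In 54 groups of one sensor in one group of mice, the highest or lowest mouse was compared with its neighbours by Dixon's ratio, and 4 stood apart at the 95% level, where chance alone flags about 1 in 20. Tlr3 was 17.3 CPM in Q111 control ASO replicate 3, against 14.9 CPM in the next mouse and 13.7 CPM in the lowest. Dhx58 was 2.58 CPM in WT Htt ASO replicate 3, with the next mouse at 1.83 CPM and the lowest at 1.45 CPM. For Zbp1, WT saline replicate 1 held 0.417 CPM where the other 5 mice lay between 0.147 and 0.174 CPM, and Q111 Htt ASO replicate 3 held 1.04 CPM where the others lay between 0.367 and 0.584 CPM. WT saline replicate 1 is the mouse that kept Zbp1 from separating all Htt ASO from all saline mice.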

How the results depend on the processing

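Over 46 alternative fits the 21 called differences of the sensors (of 135) gave 960 values, of which 41 were past the threshold no longer and 0 changed sign. The uncalled ones gave 5230 values, 50 of them called and 123 with the other sign. The fit without the left hemistriatum mouse is the same as that without WT Htt ASO replicate 6 and is counted under both names. Sensors called on Htt ASO against control ASO, Zbp1 included, numbered 2 by DESeq2, 0 with a mean of at least 1 CPM (which removes Zbp1) and 2 without the left hemistriatum mouse in WT, instead of 1, and 1 with that filter and 1 without L group 7 in Q111 mice, instead of 2. Against saline in Q111 mice (1) they numbered 2 by edgeR, 3 by DESeq2, 2 on library totals, 0 with the filter, 2 with only the groups compared and 2 without the left mouse. Between genotypes over all treatments (2) they numbered 1 with the L group as a covariate, 4 without the left mouse and 1 without L group 7, and on Htt ASO (2) 0 on library totals, 0 with the L group and 1 without L group 7. Leaving out each mouse gave 1 to 2, 1 to 3, 1 to 3, 2 to 4 and 0 to 2 for these 5 comparisons in turn, 3 to 4 (main 4) and 4 to 5 (main 5) for Htt ASO against control ASO and saline over both genotypes. Group levels on library totals moved by −1.81% to 2.06%, less than 1 SD in all 54.

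Of all genes, the count on Htt ASO against control ASO fell from 165 to 105 without L group 7 over both genotypes, from 52 to 27 with only the groups compared and to 34 without WT control ASO replicate 4 in WT, and from 63 to 29 without L group 7 (98 by DESeq2) in Q111 mice. Against saline in Q111 mice it was 98, 152 by DESeq2 and 63 without Q111 saline replicate 3, and between genotypes on control ASO 3266, or 1902 without L group 7. A block on the first letters of the mouse name had a within-block correlation of 0.0909 and, among the sensors, added the call of Ddx58 as lower in Q111 mice over all treatments (−0.15, limma adjusted p = 0.0365). No paired analysis was possible because the replicate numbers only follow the order of accession and pair no mice. The cause of the lost calls was not tested. Depth limits Zbp1 most, at 1 to 39 counts.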
